A study of Mus musculus with 24 samples.

Results

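The genes described here are Pdk4 and 8 further genes that PPAR nuclear receptors are known to drive when muscle turns to fat as fuel: Ucp3, Angptl4, Acot1, Acot2, Plin2, Plin5, Mlycd and Pnpla2. They were matched by symbol, and all 9 were found among the 47643 genes of the count table. The set was chosen by gene function around Pdk4, which was selected on its smoke against air fold change in these same samples. The smoke against air values of the 9 genes are therefore given as a description, with no test of the set. Plantaris, a fast hindlimb muscle, came from wild type C57BL/6 mice that breathed normal air (11 samples, called air) or tobacco smoke for 16 weeks (13 samples, called smoke). No allele, drug or transgene is named for either group, and age, sex and feeding state are not given in the sources used here. RNA was read from the 3′ end of polyadenylated transcripts, and whether each sample is a separate mouse is not stated, so errors measure the spread between these samples.

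PPARs are ligand-activated transcription factors that pair with RXR receptors and respond to fatty acids. In skeletal muscle they raise genes of fatty acid use during fasting and endurance exercise. Pdk4 encodes a kinase that inactivates pyruvate dehydrogenase, which spares glucose while fat is burned. Glucocorticoids and FOXO factors are also known to raise Pdk4.

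Total counts ran from 2515697 to 4528845 per sample. Levels are CPM, counts relative to library size after scaling by the TMM method of edgeR, and the reads come from transcript ends, so levels are compared here only within a gene. The markers of fast fibres were abundant in both groups, with a summed level of 212424 to 326567 CPM in air and 221183 to 280165 CPM in smoke. Of 10159 genes that passed the expression filter, 195 were called by edgeR's quasi-likelihood test (Benjamini-Hochberg adjusted p under 0.05), 74 higher and 121 lower in smoke. The sheet numbers in the column headers ran through all smoke samples and then all air samples, so the place of a library in that order and its group cannot be told apart. Fewer cells of a type and less RNA per cell cannot be told apart in these whole-muscle samples.

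The stretches upstream of the 3 genes of the set with the most negative fold changes are shown because these genes share a direction. They are the bases before the annotated gene within the RefSeq promoter windows (GRCm38.p6, minus strand for all 3), at chr6:5496310-5496528 for Pdk4, chr17:56117597-56117798 for Plin5 and chr4:86670061-86670309 for Plin2. Each runs 5′ to 3′ towards the gene, and capitals mark the half-site AGGTCA that nuclear receptors bind, on either strand.
Pdk4: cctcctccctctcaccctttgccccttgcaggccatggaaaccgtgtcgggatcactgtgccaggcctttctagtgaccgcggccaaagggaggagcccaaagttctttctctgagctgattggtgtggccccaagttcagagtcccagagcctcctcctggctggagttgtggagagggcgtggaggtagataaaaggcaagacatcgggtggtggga
Plin5: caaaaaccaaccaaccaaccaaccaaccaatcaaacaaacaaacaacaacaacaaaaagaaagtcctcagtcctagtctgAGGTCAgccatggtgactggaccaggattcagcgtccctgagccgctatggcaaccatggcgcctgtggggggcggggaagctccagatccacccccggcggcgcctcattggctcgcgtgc
Plin2: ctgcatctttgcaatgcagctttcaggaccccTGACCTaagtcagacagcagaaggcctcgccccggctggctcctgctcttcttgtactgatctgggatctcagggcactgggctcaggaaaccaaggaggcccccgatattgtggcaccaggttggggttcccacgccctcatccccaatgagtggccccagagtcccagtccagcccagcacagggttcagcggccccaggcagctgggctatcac
Windows were present for 8 of the 9 genes, with 2 for Plin5. 6 motifs were searched on both strands of each whole window, which also covers the first bases after the start: AGGTCA, a direct repeat of it spaced by 1 base (the form PPAR and RXR bind together), the E-box CACGTG, the forkhead site TGTTTAC, the glucocorticoid receptor half-site AGAACA and the D-box TTATGTAA. The half-site stood in 1 window of Plin2 and in both windows of Plin5, and 2 copies stood in that of Ucp3. It is held by 16.3% of the 32851 promoter windows used as background. These are the full-length windows without those of a chromosome that was left out, and they are called all windows here. The window of Plin2 also held an E-box, which spans the start. An E-box at any place is held by 7.15% of all windows. Acot1 and Mlycd each held 1 glucocorticoid receptor half-site (19.0% of all windows). None of the 6 motifs stood in the windows of Pdk4, Acot2 or Pnpla2, and no member's window held the spaced repeat (0.04% of all windows), the forkhead site (3.65%) or the D-box (0.938%). A match is a run of letters in these short windows only.

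Pdk4 (chromosome 6, 5483351 to 5496309, minus strand, GRCm38) was the lowest in smoke relative to air of the 8 members with a fitted value. In air its level was 1.74 CPM in the lowest sample, 5.55 CPM at the median and 9.26 CPM in the highest. In smoke it was 0.319 CPM in the lowest sample, 3.07 CPM at the median and 4.11 CPM in the highest. The groups overlapped, yet 13 of 13 smoke samples lay below the air mean and 4 lay below the lowest air sample. Mean Pdk4 levels were 5.32 ± 2.20 CPM in air (SD, n = 11) and 2.36 ± 1.29 CPM in smoke (SD, n = 13). The fitted level was 2.21-fold lower in smoke (log2 fold change −1.14, SE 0.27, 95% interval −1.69 to −0.60).

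These Pdk4 levels rest on few counts: 211 over all air samples (5 to 36 per sample) and 109 over all smoke samples (1 to 14 per sample). Smoke replicates 2, 6 and 10 stood lowest, with 1, 2 and 1 counts. For smoke replicate 2, the count of 1 carries an exact Poisson interval of 0.0253 to 5.57 counts, or 0.0081 to 1.78 CPM, which covers counting error only. The relative spread of Pdk4 between samples was 41.4% of the mean in air and 54.8% in smoke, against 22.8% and 34.5% from counting alone. Its biological coefficient of variation in the fit was 34.2%, above that of 98.4% of tested genes. It passed the expression filter through 9 air and 7 smoke samples at or above 2.84 CPM, where 11 samples were needed. The 24 fits that each dropped 1 sample gave log2 fold changes of −1.23 to −1.03. With an index of clock gene levels as a covariate the value was −0.56, and with a score of blood markers −1.23, and neither was called.

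**Figure D1:**
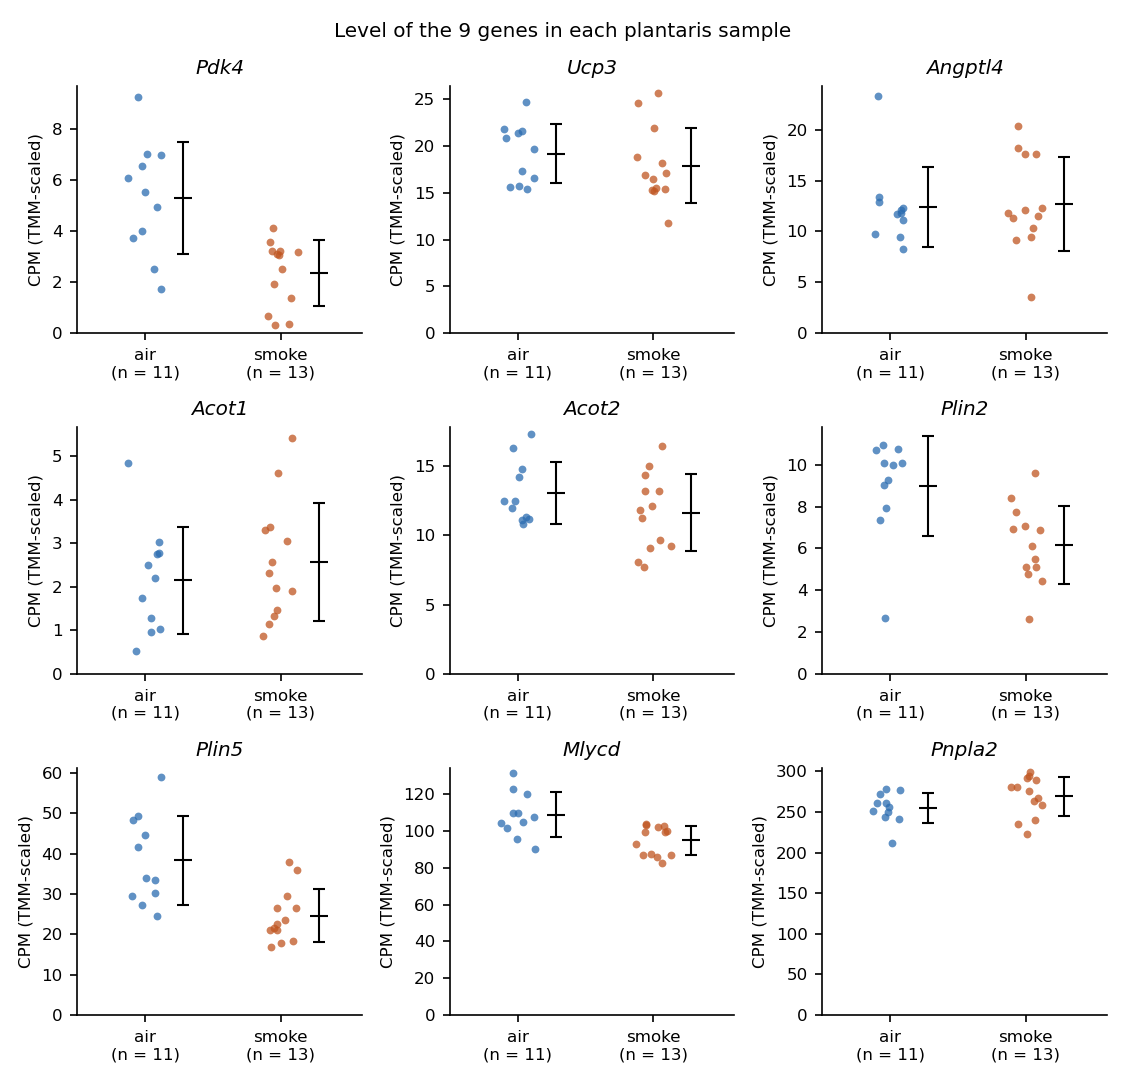
Level of each of the 9 genes in CPM (vertical axes, from 0) in every air sample (blue, n = 11) and smoke sample (orange, n = 13), with the mean and SD in black beside the points. Pdk4 and Plin5 sit lower in smoke with overlapping groups, whereas the ranges of Ucp3, Angptl4 and Acot1 largely overlap.

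Lipid droplets are the fat stores inside the fibre, coated by perilipins and opened by lipases. Plin5 (chromosome 17, 56111601 to 56117596, minus strand) encodes the perilipin that tethers droplets to mitochondria in oxidative tissue. Its level in air was 24.4 CPM in the lowest sample, 34.0 CPM at the median and 59.1 CPM in the highest, and in smoke 16.9, 22.6 and 37.9 CPM. Smoke samples gathered at the low end, with 8 of 13 below every air sample and 13 of 13 below the air mean. Means were 38.4 ± 11.0 CPM in air and 24.5 ± 6.56 CPM in smoke (SD, n = 11 and 13), a fitted level 1.55-fold lower in smoke (log2 fold change −0.63, SE 0.14, 95% interval −0.91 to −0.35). Counts ran from 48 to 215 per sample. The fits without 1 sample gave log2 fold changes of −0.70 to −0.55, and with the clock index as a covariate the value was −0.90 and not called.

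Plin2 (chromosome 4, 86648386 to 86670060, minus strand) encodes a perilipin found on droplets of most cell types. In air it was 2.69 CPM in the lowest sample, 9.99 CPM at the median and 10.9 CPM in the highest, and in smoke 2.64, 6.12 and 9.61 CPM. The lowest air sample, replicate 4, stood apart from the other air samples, and all 13 smoke samples lay below the air median. Means were 8.99 ± 2.38 CPM in air and 6.18 ± 1.85 CPM in smoke (SD, n = 11 and 13). The log2 fold change of −0.55 (SE 0.17, 95% interval −0.90 to −0.20) was not called. The 24 fits without 1 sample gave −0.66 to −0.49, and 1 of them, that without air replicate 4 (−0.66), called the gene.

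Pnpla2 (chromosome 7, 141455198 to 141460743, plus strand) encodes adipose triglyceride lipase, which takes the first fatty acid off stored triglyceride. Its level was 212 CPM in the lowest air sample, 256 CPM at the median and 279 CPM in the highest, against 223, 276 and 299.8 CPM in smoke. The groups overlapped, with 10 of 13 smoke samples above the air mean and 6 above every air sample. Means were 255 ± 19.0 CPM in air and 269 ± 24.2 CPM in smoke (SD, n = 11 and 13). The log2 fold change of 0.08 (SE 0.054, 95% interval −0.03 to 0.19) was not called, and the interval holds changes of either sign. With 612 to 1266 counts per sample, Pnpla2 was the most deeply counted member.

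Malonyl-CoA blocks the entry of fatty acids into mitochondria, and Mlycd (chromosome 8, 119394878 to 119411102, plus strand) encodes the decarboxylase that removes it. Mlycd ran from 90.0 CPM through a median of 108 CPM to 132 CPM in air, and from 82.3 CPM through 99.2 CPM to 104 CPM in smoke. All 13 smoke samples lay below the air mean of 109 ± 12.1 CPM (SD, n = 11), and the smoke mean was 94.8 ± 7.86 CPM (SD, n = 13). The log2 fold change was small, −0.20 (SE 0.061, 95% interval −0.32 to −0.08), and was not called. The 24 fits without 1 sample gave −0.23 to −0.17, and 1 of them, that without air replicate 2, the lowest air sample (−0.23), called the gene.

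Inside mitochondria, Ucp3 encodes an inner-membrane carrier of the uncoupling protein family that muscle expresses when fatty acids are high, and Acot2 encodes a matrix thioesterase that frees fatty acids from CoA. Ucp3 (chromosome 7, 100472990 to 100486432, plus strand) ran from 15.4 CPM through a median of 19.7 CPM to 24.7 CPM in air, and from 11.8 CPM through 16.9 CPM to 25.7 CPM in smoke. Means were 19.2 ± 3.16 CPM and 17.9 ± 3.99 CPM (SD, n = 11 and 13), a log2 fold change of −0.10 (SE 0.11, 95% interval −0.33 to 0.12) that was not called. The antisense gene Gm10603 overlaps Ucp3 on the opposite strand, and since the use of strand in counting is not given in the sources used here, reads of the pair cannot be told apart with certainty. Gm10603 held 44 counts over all samples against 1523 for Ucp3.

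Acot2 (chromosome 12, 83987861 to 83993873, plus strand) ran from 10.8 CPM through a median of 12.4 CPM to 17.3 CPM in air, and from 7.71 CPM through 11.8 CPM to 16.4 CPM in smoke. The groups overlapped, although 5 smoke samples fell below the lowest air sample. Means were 13.1 ± 2.23 CPM and 11.6 ± 2.75 CPM (SD, n = 11 and 13), a fitted log2 fold change of −0.17 (SE 0.12, 95% interval −0.42 to 0.09) that was not called. Acot1 (chromosome 12, 84009490 to 84018371, plus strand), the cytosolic neighbour and close copy of Acot2, was too low to be tested, with 8 samples at or above the filter level. It ran from 0.531 CPM through 2.20 CPM to 4.85 CPM in air and from 0.881 CPM through 2.32 CPM to 5.42 CPM in smoke, from 2 to 18 counts per sample. With no expression filter its log2 fold change was 0.25 (SE 0.30, 95% interval −0.34 to 0.84), an interval wide enough to hold changes of either sign. The transcripts of Acot1 and Acot2 share 23.7% of the 50-base windows of Acot1. They share 0 of 451 such windows at the 3′ end, where these libraries are read, so a mix-up between the pair needs reads from further inside the transcript.

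Angptl4 (chromosome 17, 33773750 to 33781830, minus strand) encodes a secreted inhibitor of lipoprotein lipase, by which a tissue lowers its uptake of fat from blood lipoproteins. Its level ran from 8.23 CPM through a median of 11.8 CPM to 23.3 CPM in air, and from 3.51 CPM through 11.8 CPM to 20.4 CPM in smoke. Air replicate 1 held the highest level and smoke replicate 4 the lowest. Means were 12.4 ± 3.95 CPM and 12.7 ± 4.61 CPM (SD, n = 11 and 13). The log2 fold change of 0.04 (SE 0.18, 95% interval −0.32 to 0.40) was not called and changed sign with the fit used.

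**Figure D2:**
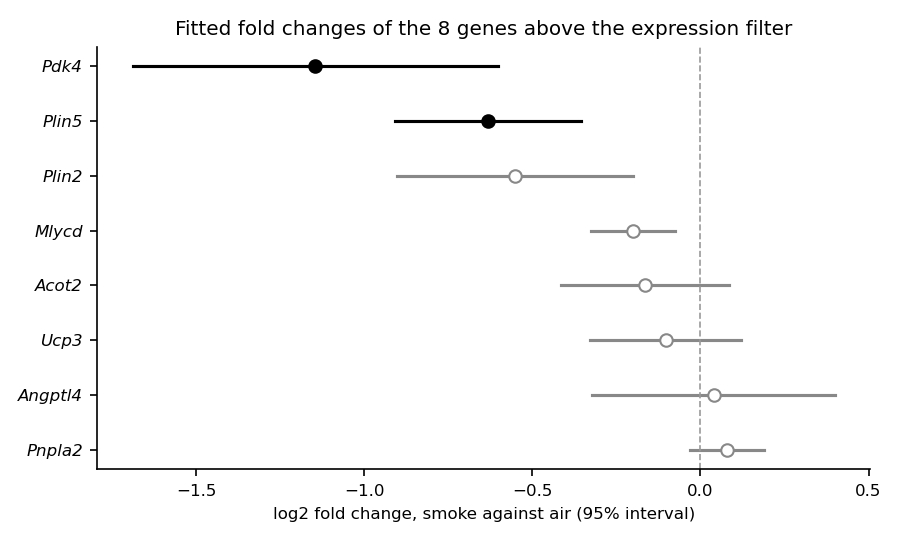
Fitted log2 fold change of smoke against air (horizontal axis) with its 95% interval for the 8 genes that passed the expression filter; filled points were called, open points were not. Pdk4 at −1.14 and Plin5 at −0.63 are the called genes, and the intervals of Plin2 and Mlycd also lie below 0.

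Across the set, 2 of 8 tested members were called, both lower in smoke (Pdk4 and Plin5). Over all tested genes 1.92% were called, 1.19% lower and 0.728% higher. The median log2 fold change was −0.18 over the 8 tested members and 0.01 over all tested genes, and 6 of the 8 were negative, as were 48.4% of all tested genes. As the set was chosen with this contrast known, nothing is read from these counts.

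The other genes of the pathway were taken from lists of known roles. These lists too were drawn up with earlier results of these data known, so their counts are a description. Of the enzymes that oxidise fatty acids and further PPAR targets, 18 of 21 were tested, 6 fell, 1 rose and 11 were not called. Over all tested genes 1.19% were called lower. The median log2 fold change of the list was −0.18, and 17 of 18 values were negative, against 0.01 and 48.4% over all tested genes. The 6 that fell were Ech1, Hadha, Acadvl, Acaa2 and Decr1 of mitochondrial β-oxidation, and Slc25a34, a mitochondrial carrier. Acadvl, the very long chain acyl-CoA dehydrogenase that opens the cycle, fell from 406 ± 22.8 to 328 ± 34.0 CPM (SD, n = 11 and 13; log2 fold change −0.31, SE 0.053, edgeR adjusted p = 0.00107). Hadha, a subunit of the trifunctional protein, fell by 0.33 on the log2 scale (SE 0.064, edgeR adjusted p = 0.00427). Ech1, which isomerises unsaturated intermediates, fell by 0.43 (SE 0.075, edgeR adjusted p = 0.00150). Acaa2, the thiolase of the last step, fell by 0.28 (SE 0.069, edgeR adjusted p = 0.0235), and Decr1, a reductase for unsaturated fatty acids, by 0.23 (SE 0.063, edgeR adjusted p = 0.0426). Slc25a34 had the most negative value of the list, −0.76 (SE 0.18, edgeR adjusted p = 0.0201). Fbp2, the muscle fructose bisphosphatase of glycogen synthesis from lactate, rose from 42.7 ± 5.79 to 55.0 ± 7.35 CPM (SD, n = 11 and 13; log2 fold change 0.37, SE 0.078, edgeR adjusted p = 0.00863). Of these 7 genes, Decr1 was called in 7 of the 24 fits that left out 1 sample, and the other 6 in all 24. Slc25a34 was not called with limma voom (log2 fold change −0.70) or with a block for replicate number (−0.71). Decr1 was not called with no expression filter (−0.24) or with that block (−0.26). With the clock index as a covariate Fbp2 stood at 0.13 and was not called (edgeR adjusted p = 0.673), while Hadha, Acadvl and Slc25a34 stood at −0.41, −0.31 and −0.84 and were not called either. With the blood score, Ech1, Acaa2, Decr1 and Slc25a34 stood at −0.31, −0.26, −0.20 and −0.73 and lost the call, as did Fbp2 at 0.34.

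Around the lipid droplet, 3 of 14 tested genes fell and none was called higher. Dgat2, which makes triglyceride, fell by 0.39 on the log2 scale (SE 0.10, edgeR adjusted p = 0.0329). Mgll, the lipase that acts last in triglyceride breakdown, fell by 0.29 (SE 0.072, edgeR adjusted p = 0.0272). Plin4, a perilipin of muscle and fat, fell by 0.25 (SE 0.069, edgeR adjusted p = 0.0481). Leaving out 1 sample ended the call in 11 of 24 fits for Dgat2, 2 of 24 for Mgll (without air replicate 1 or 6, −0.25 and −0.27) and 15 of 24 for Plin4. With the blood score as a covariate none of these 3 was called: Dgat2 stood at −0.36 (edgeR adjusted p = 0.208), Mgll at −0.29 (edgeR adjusted p = 0.129) and Plin4 at −0.17 (edgeR adjusted p = 0.402). With the clock index Plin4 stood at −0.35 and was not called (edgeR adjusted p = 0.136). Mgll also lost its call with the block for replicate number (−0.28). Plin4 lost its call with upper-quartile scaling and with a slow fibre score as a covariate (−0.25 in both). Of the genes of lipoprotein lipase and fatty acid uptake, 1 of 7 tested fell: Fabp3, the fatty acid carrier of the muscle cytosol, from 810 ± 184 to 539 ± 101 CPM (SD, n = 11 and 13; log2 fold change −0.59, SE 0.10, edgeR adjusted p = 0.00107). Lpl, the lipase that Angptl4 inhibits, stood at −0.07 on the log2 fold change scale (SE 0.055, edgeR adjusted p = 0.601).

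Of the 10 tested genes of the pyruvate dehydrogenase list, which leaves out Pdk4, none was called by edgeR (3 at an unadjusted p under 0.05, 1 higher and 2 lower). Over all 10159 tested genes, 1575 were at an unadjusted p under 0.05 in edgeR. Pdk2 had 118 ± 11.0 CPM in air and 108 ± 9.82 CPM in smoke (SD, n = 11 and 13; log2 fold change −0.13, SE 0.059, edgeR adjusted p = 0.240). Pdk1 stood at −0.11 on the log2 fold change scale (SE 0.083, edgeR adjusted p = 0.561), and Pdk3 was too low to be tested, with 92 counts over all samples. Of 6 tested acyl-CoA thioesterases other than the members, none was called by edgeR (2 at an unadjusted p under 0.05, both lower).

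Among genes of malonyl-CoA and of carnitine transport into mitochondria, 1 of 11 tested fell. It was Cpt2, the inner carnitine palmitoyltransferase (log2 fold change −0.24, SE 0.066, edgeR adjusted p = 0.0495), which kept its call in 8 of 24 fits without 1 sample and in neither the fit with the clock index (−0.27) nor that with the blood score (−0.24). Acacb, which makes malonyl-CoA at the mitochondrion, stood at 0.02 on the log2 fold change scale (SE 0.073, edgeR adjusted p = 0.946). Cpt1b, the muscle form of the enzyme malonyl-CoA inhibits, held 4 counts over all 24 samples and was not tested. Whether so few counts reflect the level of Cpt1b or the way its reads were counted was not tested, so no low expression is read from them.

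Of the PPAR receptors, Ppara averaged 9.79 ± 3.16 CPM in air against 8.60 ± 2.60 CPM in smoke (SD, n = 11 and 13; edgeR adjusted p = 0.641). Ppard averaged 6.29 ± 1.72 CPM in air against 6.61 ± 1.81 CPM in smoke (SD, n = 11 and 13; edgeR adjusted p = 0.838). The coactivator Ppargc1a stood at −0.21 on the log2 fold change scale (SE 0.090, edgeR adjusted p = 0.222). Of 14 genes on the FOXO and glucocorticoid side, 1 fell, the repressor Bcl6 (log2 fold change −0.31, SE 0.084, edgeR adjusted p = 0.0442), called in 11 of 24 fits without 1 sample and not with the clock index (−0.35) or the blood score (−0.25). Foxo1 stood at −0.20 on the log2 fold change scale (SE 0.085, edgeR adjusted p = 0.232), Klf15, a glucocorticoid-induced factor, 0.30 (SE 0.19, edgeR adjusted p = 0.499), and Fbxo32, a FOXO target in atrophy, −0.04 (SE 0.082, edgeR adjusted p = 0.891). Of the 14 pathway genes called in all, 6 kept the call with a clock index as a covariate and 3 with a blood score, Fabp3 being the gene that kept it with both. Lost calls did not always go with smaller values: Mgll stood at −0.29 in both the fit without covariates and that with the blood score.

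**Figure D3:**
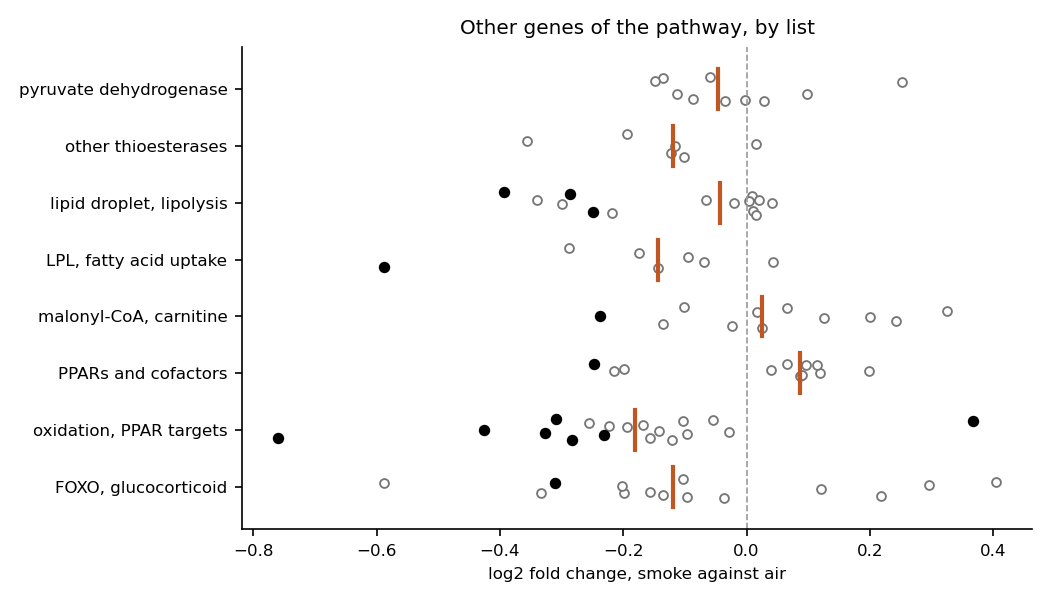
Log2 fold change of smoke against air (horizontal axis) for each tested gene of 8 pathway lists (rows, members left out); filled points were called, and the orange bar is the list's median. The oxidation list lies left of 0 in 17 of 18 genes with a median of −0.18, and the pyruvate dehydrogenase list has no called gene.

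Within a group, the spread between samples does not use the smoke against air contrast, so the set was compared there too. Over the 11 air samples and over the 13 smoke samples, Pdk4 was correlated with each of the 7 other tested members on log2 CPM, 14 relations in all. None passed after adjustment (two-sided permutation test with Benjamini-Hochberg adjustment, adjusted p of Pearson's r 0.727 to 0.984, of Spearman's rho 0.812 to 0.990). In smoke, r was 0.41 with Plin2 (permutation p = 0.168, rho 0.35, permutation p = 0.247) and 0.38 with Plin5 (permutation p = 0.203, rho 0.42, permutation p = 0.153). Without smoke replicates 2 and 10, the samples farthest from the Pdk4 median, these were 0.79 and 0.17. In air, r was −0.29 with Plin2 (permutation p = 0.364, rho −0.26, permutation p = 0.437) and 0.21 with Plin5 (permutation p = 0.527, rho 0.14, permutation p = 0.692), and −0.22 and −0.18 without air replicates 2 and 11. Without those air samples, r of Acot2 went from −0.32 (permutation p = 0.337, rho −0.50, permutation p = 0.123) to −0.86, and that of Mlycd from 0.25 (permutation p = 0.468, rho 0.04, permutation p = 0.924) to −0.36. The sign also turned for Plin5 and Ucp3 in air and for Angptl4 in smoke, where r went from −0.28 (permutation p = 0.356, rho −0.32, permutation p = 0.290) to 0.18. The signs that turned rest on the samples left out. Each Pdk4 value rests on 1 to 36 counts, and its relative spread from counting alone is 22.8% in air and 34.5% in smoke.

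**Figure D4:**
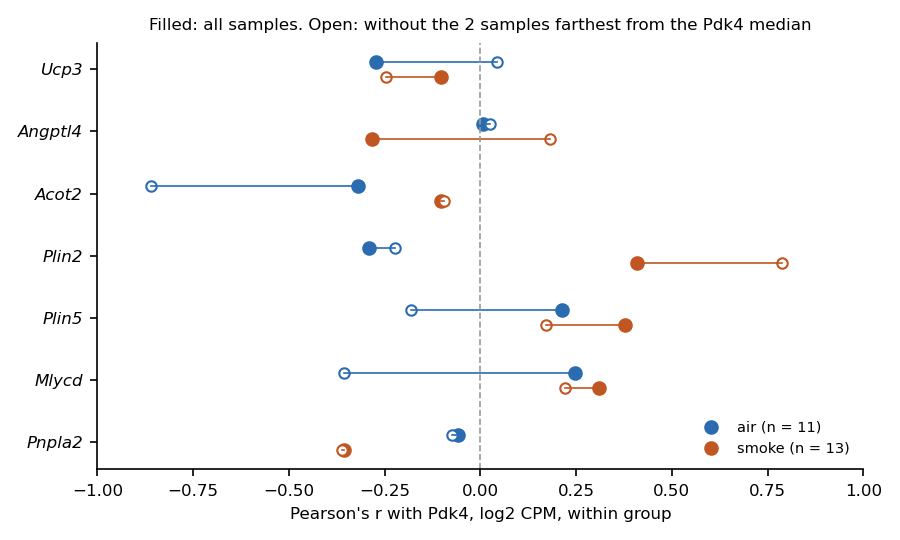
Pearson's r of Pdk4 with each of 7 members on log2 CPM (horizontal axis), over the 11 air samples (blue) and the 13 smoke samples (orange). Open points leave out the 2 samples farthest from the Pdk4 median; several move far, such as Acot2 in air from −0.32 to −0.86, and r has opposite signs in the 2 groups for Plin2 (−0.29 and 0.41) and Angptl4 (0.01 and −0.28).

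By the mean of both within-group Pearson correlations, Plin5 ranked 1925 and Mlycd 2055 of 10158 genes in likeness to Pdk4, Plin2 ranked 4262, and Angptl4, Ucp3, Pnpla2 and Acot2 ranked 6613 to 7489. The genes most like Pdk4 were Srp19 (0.80 in air and 0.92 in smoke), a protein of the signal recognition particle, then Txlnb (0.83 and 0.77), Gm11967 (0.88 and 0.70), Impact (0.90 and 0.66) and Akirin2 (0.79 and 0.77). The most opposite were Prok1 (−0.88 and −0.84), Bcs1l (−0.86 and −0.84), Adamts4 (−0.77 and −0.91), Gm43366 (−0.79 and −0.86) and Tpm3-rs7 (−0.73 and −0.90). These are the extremes of many genes over 11 and 13 samples that share their libraries, and are given as a description. Between smoke and air, the edgeR adjusted p of these 10 genes ran from 0.140 to 1.00.

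Other cell types and the clock moved with the groups as follows. Adipocyte markers, which include droplet genes, had a summed level of 3991 to 6322 CPM in air and 4730 to 6771 CPM in smoke. None of the 10 was called by edgeR (4 at an unadjusted p under 0.05, 3 higher and 1 lower), and Adipoq, which defines fat cells, had 42.8 ± 15.6 CPM in air and 46.5 ± 14.5 CPM in smoke (SD, n = 11 and 13). With the adipocyte score as a covariate, the log2 fold changes of Pdk4 and Plin5 were −1.08 and −0.65, both called. None of the 9 endothelial, 6 macrophage, 7 slow fibre or 10 fast fibre markers tested was called by edgeR (at an unadjusted p under 0.05, 1, 0, 2 and 2 of them).

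Blood markers summed to 486 to 1444 CPM in air and 369 to 883 CPM in smoke, with 3 of 5 called lower and none at 0 in either group. With the blood score as a covariate Plin5 had a log2 fold change of −0.81 and was called, and Pdk4 had −1.23 and was not. Schwann cell markers summed to 124 to 292 CPM in air and 188 to 898 CPM in smoke, with 4 of 7 tested called higher, and their part in the values of the members was not tested. Of 13 tested clock genes 3 rose (Dbp, Per3 and Nr1d2) and 1 fell (Nfil3). A clock index, the mean log2 CPM of 6 genes of 1 phase (Dbp, Tef, Hlf, Per3, Nr1d1, Nr1d2) minus that of 3 of the opposite phase (Arntl, Clock, Nfil3), was 1.43 ± 0.30 in air (SD, n = 11) and 2.36 ± 0.46 in smoke (SD, n = 13). With this index as a covariate the log2 fold change of Pdk4 was −0.56 and that of Plin5 −0.90, and neither was called. The index holds the clock genes called in this same contrast and differs between the groups. A fit with it therefore cannot tell clock state and group apart. The time of day of sampling is not given in the sources used here.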

How the data were processed

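The deposited table holds unnormalised read counts by Ensembl gene for 24 plantaris samples, 11 air and 13 smoke. Per the labels' protocols, column-purified RNA of frozen muscle was made into Lexogen QuantSeq 3′ forward libraries and sequenced on an Illumina instrument. Per the submitters' processing notes, STAR, DESeq2 and the build mm9 were used, with no role given. The counting tool, annotation, use of strand and use of molecular identifiers are not given in the sources used here, so reads may include PCR copies. Groups and replicate numbers came from the titles.

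Symbols and coordinates came from GENCODE M21 (GRCm38), which held 47224 IDs (99.1%), and promoter windows (250 bases before to 50 after a start) from RefSeq (GRCm38.p6). Both differ from mm9, and no coordinate of the submitters was used. The test was that of edgeR 4.0.16 (R 4.3.3): filterByExpr (minimum count 10), TMM, and glmQLFit and glmQLFTest without covariates on all samples, with Benjamini-Hochberg adjustment over 10159 genes. Called means an adjusted p under 0.05. CPM used TMM-scaled totals of the tested genes, and log2 CPM a prior count of 2. Scores are mean log2 CPM over a list's tested genes, with Plin1 left out of the adipocyte score. Correlations used 100000 resamples (scipy 1.17.1). The scripts were tested on simulated data. Total counts of 2515697 to 4528845 put 3 counts at 0.662 to 1.19 CPM. No pair of 133 within-group sample pairs agreed within sampling noise (chi-square per gene 2.33 to 16.0).

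The members and lists were chosen with earlier results of these data known. Genes named beside the 9 members were the called genes of each pathway list (1 of them is not reported here), 12 genes named for their role, the 5 most like and 5 most unlike Pdk4 within groups, and the markers and clock genes that a stated score rests on. Alternatives were voom in limma 3.58.1, DESeq2 1.42.0, robust dispersion, upper-quartile and RLE scaling, 2 other filters, removal of the 10 most abundant genes, covariates, a replicate block, an adjusted p under 0.10, and leaving out each sample.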

Additional observations from a re-analysis of the deposited data

How the results depend on the processing

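Over the alternatives other than leaving out samples, 93 of 104 member fold changes kept their direction and their side of the threshold. Against 195 genes and 2 members called, DESeq2 gave 313 and 4 (Plin2 and Mlycd in addition), an adjusted p under 0.10 gave 413 and 4, the blood score as a covariate gave 56 and 1 (Plin5), and the clock index as a covariate gave 28 and 0 in edgeR (1347 genes and 2 members at an unadjusted p under 0.05). Both covariates differ between the groups and rest in part on genes called in this contrast, so these fits cannot tell covariate and group apart. The oxidation genes called lower went from 6 to 2 with the blood score, where the 4 lost ones had log2 fold changes of −0.73 to −0.20, against −0.76 to −0.23 without it. Pdk4 was not called with the clock index (log2 fold change −0.56) or the blood score (−1.23), and Plin5 not with the clock index (−0.90). Over the 24 fits without 1 sample, the count of called genes ran from 141 to 254. The cause of these changes was not tested.

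Some values that were not called changed sign. Angptl4 had −0.0127 with limma voom, −0.352 with the clock index, −0.0781 with the adipocyte score, −0.0275 with the replicate block, and −0.0335 to 0.174 over the fits without 1 sample. Pnpla2 had −0.0759 with the clock index and Ucp3 0.0876 with the blood score. Acacb had −0.0271 with the clock index, −0.0347 with the replicate block and −0.0182 to 0.0511 over the fits without 1 sample, Fbxo32 had −0.0776 to 0.00725 over those fits, and Ppargc1a, at −0.21 without covariates, had 0.0691 with the clock index. Of 312 further comparisons of pathway genes 272 kept direction and side and 37 lost the call. The within-group correlations did so in all 42 comparisons under other scaling, prior count or library size, but 4 of the 14 changed sign without the 2 samples farthest from the Pdk4 median.

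The replicate block over the 22 samples whose number occurs in both groups called 138 genes (110 shared) and the same 2 members, Pdk4 at −1.24 and Plin5 at −0.64. Same-numbered samples showed no shared deviation (mean r −0.0059 over 11 pairs, 4 of them above 0.1). A weak pairing could go unseen in so few pairs, so pairing by number was not detected rather than excluded. Low counts limit Pdk4 and Acot1 most.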
